A study of Mus musculus with 8 samples.

Results

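Chromatin accessibility was compared between the 2 groups of the study that differed in both genotype and cytokine: control mouse CD4 T cells given IL-2, and CD4 T cells lacking Tet1 and Tet3 that received none. These groups hold 4 of the 8 libraries of the study, 2 each. They were taken up with earlier results of these data known, as the most distant pair of groups, and the libraries were assigned to groups by their labels. In every library, naive CD4 T cells sorted from spleen had been activated through CD3 and CD28 in 20 ng/mL TGF-β for 48 h, and 90000 cells were then taken for ATAC-seq, an assay in which a transposase cuts and tags open DNA. The first group, "control TGFb+ IL-2" (wild type in the labels, here control plus IL-2), also received 100 U of IL-2. The second, "Tet1/3 cDKO TGFb only" (a conditional double knockout, here cDKO without IL-2), had TGF-β and the activating antibodies but no added IL-2. The remaining libraries, 2 of control without IL-2 and 2 of cDKO plus IL-2, took no part in choosing the regions below and are used only to describe them. The sources used here do not give the Cre driver, the deleted exons or the age and number of the mice. Because genotype and IL-2 change together between the compared groups, their parts in any difference cannot be told apart from these 4 libraries alone.

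TET enzymes oxidise 5-methylcytosine in DNA, the first step in removing this mark from promoters and enhancers. Activated T cells make their own IL-2 and respond to it through a receptor that contains the alpha chain encoded by Il2ra and that activates the transcription factor STAT5. TGF-β, acting through SMAD proteins, together with IL-2 drives naive CD4 T cells toward regulatory T cells, which are defined by Foxp3. IL-2 signalling and TET activity have both been linked to the Foxp3 locus and to stable regulatory T cells.

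A region was called higher in one group when both of its libraries listed a peak there and neither library of the other group did, using lists of equal number (65811 peaks per library, those with the highest −log10 p). "Higher" has only that meaning below, since the deposited lists of the other group may still have a weaker peak there. Where no deposited list of the other group held a peak at any rank, the region is described as without a deposited peak there. With 2 libraries against 2 the smallest 2-sided p of an exact permutation test is 1 in 3, so the calls carry no p-value. Fold values are the authors' enrichment over background at the peak summit. They describe a peak in its own library and were not compared in a test.

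Promoter sequences are shown first, because the motifs in them are part of the differences described below. The 250 bases before the gene start are given 5′ to 3′ on the strand of the gene, from RefSeq (GRCm38.p6), with matches to searched motifs in capitals. Fgl2 and Tnfaip6 carry both TTCNNNGAA, the palindromic STAT5 binding element (GAS), and the AP-1 motif TGANTCA. Il9 carries AP-1 without GAS. Gpr15, whose region was higher in cDKO without IL-2, carries AP-1 too, and TGTGGT, the RUNX motif, on the opposite strand. CCAAT boxes and the GC box GGGCGG are also in capitals, on either strand. The stretches are chr5:21372423-21372672 and chr2:52037863-52038112 on the plus strand, and chr13:56482258-56482507 and chr16:58718873-58719122 on the minus strand. These 4 genes were chosen after their values were seen.
Fgl2: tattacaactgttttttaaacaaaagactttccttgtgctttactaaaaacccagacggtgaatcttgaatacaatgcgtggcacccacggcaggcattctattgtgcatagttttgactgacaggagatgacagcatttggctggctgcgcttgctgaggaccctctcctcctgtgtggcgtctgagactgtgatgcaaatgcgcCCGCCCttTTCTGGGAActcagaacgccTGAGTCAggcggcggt
Tnfaip6: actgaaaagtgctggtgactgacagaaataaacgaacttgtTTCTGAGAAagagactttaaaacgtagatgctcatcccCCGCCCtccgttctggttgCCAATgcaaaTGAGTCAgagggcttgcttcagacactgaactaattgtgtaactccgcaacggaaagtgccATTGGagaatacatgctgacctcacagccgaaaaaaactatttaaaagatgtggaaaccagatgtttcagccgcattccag
Il9: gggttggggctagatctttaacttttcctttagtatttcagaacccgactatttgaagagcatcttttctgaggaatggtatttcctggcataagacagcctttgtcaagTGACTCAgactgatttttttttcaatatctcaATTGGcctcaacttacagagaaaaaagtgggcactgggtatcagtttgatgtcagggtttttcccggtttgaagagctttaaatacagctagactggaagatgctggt
Gpr15: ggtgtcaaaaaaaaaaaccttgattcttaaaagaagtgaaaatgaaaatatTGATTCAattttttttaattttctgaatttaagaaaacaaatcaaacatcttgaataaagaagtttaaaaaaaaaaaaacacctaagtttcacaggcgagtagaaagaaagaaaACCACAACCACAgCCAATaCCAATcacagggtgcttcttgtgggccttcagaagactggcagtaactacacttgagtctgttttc

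One library stood apart before any comparison. Control plus IL-2 replicate 2 had the shortest list, 65811 peaks against 92488 to 145979 in the other 7, so its whole deposited list is its equal-number list. Its weakest kept peak had a −log10 p of 3.25, against 7.97 to 13.5 elsewhere, and its median fold of 6.25 lay below the 7.73 to 9.75 of the others. For regions higher in cDKO without IL-2, the absence of a deposited peak therefore rests on control plus IL-2 replicate 1 alone. The promoter windows (250 bases before to 50 after the start) of Cd3e, Lck and Il2ra overlapped a listed region in 8 of 8 libraries, and those of Ms4a1, Cd14, Lyz2, Csf1r and Ncr1 in 0 of 8. Less uniform were Cd3d at 6 of 8, the myeloid gene Itgam at 2 of 8 and the gamma-delta T cell gene Sox13 at 5 of 8. The Cd4 promoter window overlapped none in any library and the Cd8a window 1 in 3 of 8. T cell identity genes had 12 or 13 of 20 promoter windows listed per library, B cell genes 1 of 12, CD8 T and NK cell genes 1 to 3 of 15 and myeloid genes 3 to 5 of 17.

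Of 69783 regions listed in at least 2 of the 4 compared libraries, 5875 (8.42%) were higher in control plus IL-2 and 5665 (8.12%) in cDKO without IL-2. All 4 libraries listed 44081 regions. Of the regions higher in control plus IL-2, 2267 (3.25% of those examined) had no deposited peak in either cDKO library, while 2094 had one in both, further down the lists. Of those higher in cDKO without IL-2, 1757 (2.52%) had no deposited peak in control plus IL-2. Most calls were of weaker peaks: the worse of both ranks was 32905 or better for 781 regions (13.3%) higher in control plus IL-2 and for 275 (4.85%) higher in cDKO without IL-2. The counts rest on how many lists must concur. Without control plus IL-2 replicate 2 they were 10356 and 8414, and without replicate 1 they were 11955 and 10092. Without cDKO replicate 1 they were 7412 and 9692, and without cDKO replicate 2 they were 7591 and 9240.

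The compared groups, chosen for being distant, were the least alike pair in the study by mean similarity, which is given as a description. The Jaccard index, the regions listed by both libraries over those listed by either, was 0.645 ± 0.020 (SD over 4 pairs of libraries, from 0.626 to 0.663) between them. It was 0.713 between the replicates of control plus IL-2 and 0.796 between those of cDKO without IL-2. This order turned for control plus IL-2 with the deposited lists, where its replicates shared 0.557 and the compared groups 0.584. The other pair of groups that differ in both factors, control without IL-2 and cDKO plus IL-2, had a mean of 0.709 ± 0.011 (SD, 4 pairs). Its values ranged from 0.700 to 0.726. Pairs of libraries share members, so these values are a description. The lower values between the compared groups, 0.626 and 0.629, were those of control plus IL-2 replicate 2. With replicate 1 they were 0.662 and 0.663. The compared groups were chosen as the most distant, so their place below the other pairs of groups follows from that choice.

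**Figure D1:**
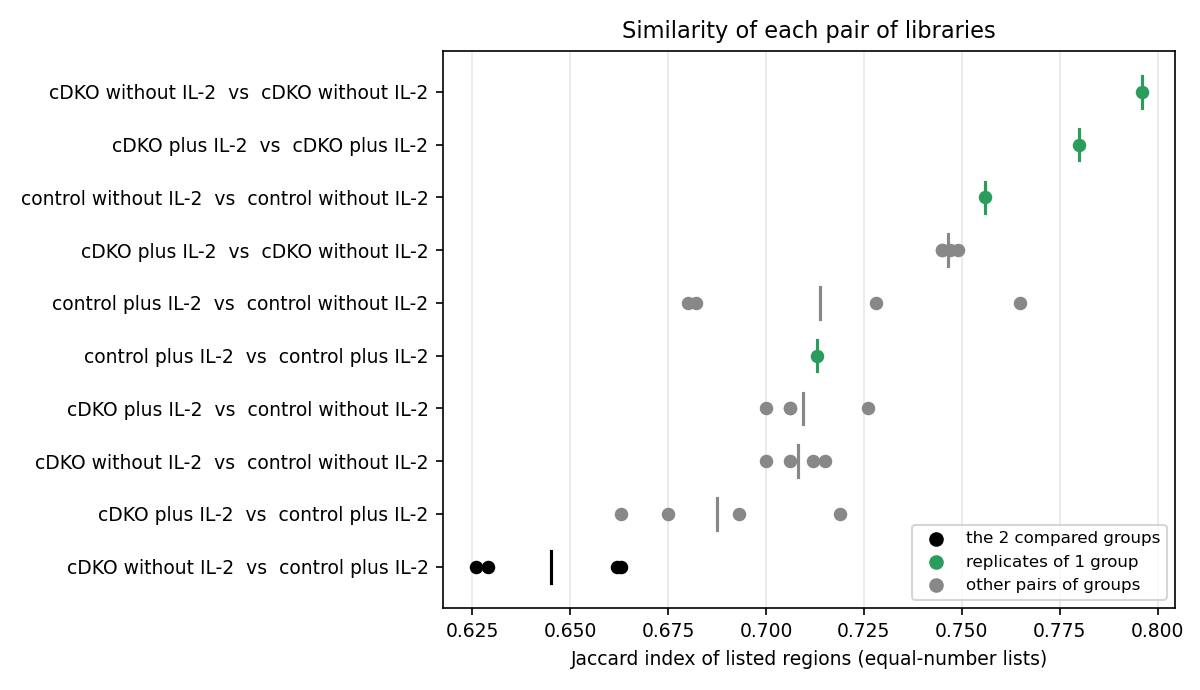
Jaccard index of listed regions for all 28 pairs of libraries, with 1 row per pair of groups; points are pairs of libraries and vertical bars their mean. The 4 pairs of the compared groups (black) lie between 0.626 and 0.663, at the low end of the axis, which starts above 0.

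The 4 libraries not used for the calls placed most called regions neither with one genotype nor with one cytokine arm. Regions higher in control plus IL-2 were in the equal-number lists of control without IL-2 for 61.4% and 49.9% (replicates 1 and 2), and of cDKO plus IL-2 for 32.2% and 45.0%. The values of the control libraries both lay above those of the cDKO libraries. Regions higher in cDKO without IL-2 were listed by cDKO plus IL-2 for 53.2% in each replicate, and by control without IL-2 for 36.2% and 42.4%. Here too the libraries of the same genotype listed more in the equal-number lists. With deposited peaks of any rank counted the genotypes overlapped. Regions higher in control plus IL-2 then had a peak in control without IL-2 for 99.3% and 76.5%, and in cDKO plus IL-2 for 65% and 87.3%. For regions higher in cDKO without IL-2 these values were 95.3% and 73%, and 83.2% and 93%. Called regions were split further by full replication. Of the 5875 regions, 1073 (18.3%) were listed by both control without IL-2 libraries and neither cDKO plus IL-2 library, as regions that go with genotype would be, and 334 (5.69%) had the reverse pattern, as regions that go with IL-2 would. Of the 5665 regions, the corresponding counts were 677 (12%) listed with the cDKO genotype and 220 (3.88%) listed with the absence of IL-2. A further 675 (11.5%) and 743 (13.1%) were in all 4 of the other libraries, missing only from the group called lower. Another 943 (16.1%) and 1069 (18.9%) were in none of them.

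**Figure D2:**
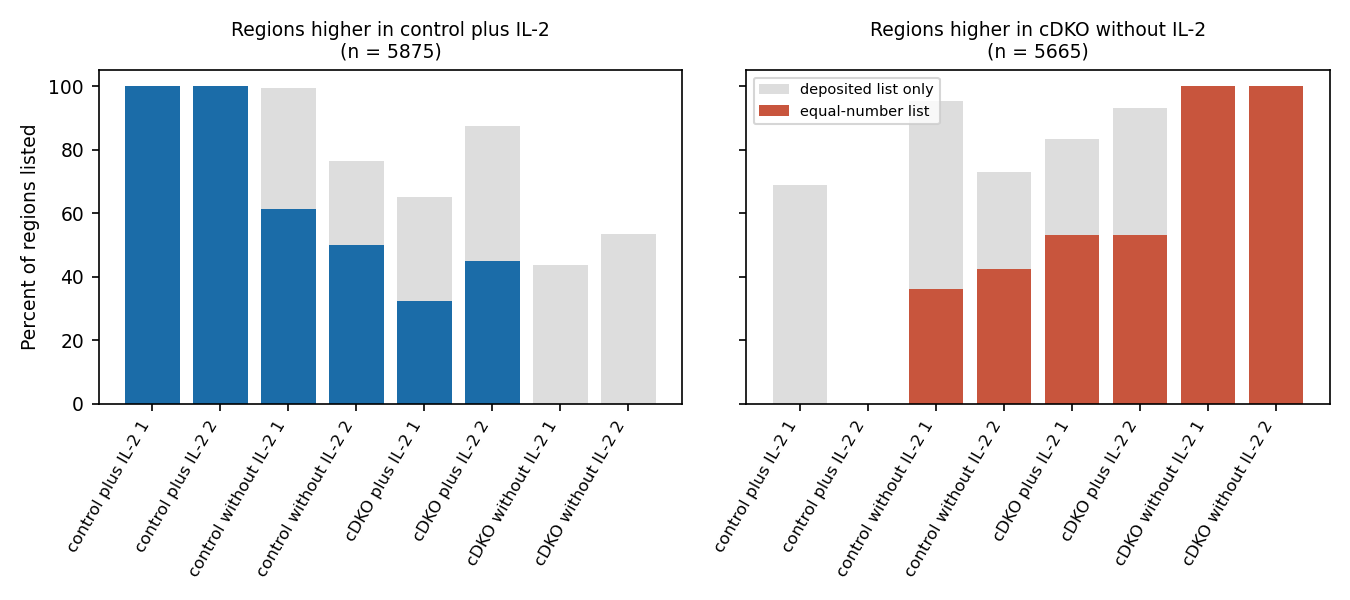
Percent of called regions listed in each of the 8 libraries, for regions higher in control plus IL-2 (left) and in cDKO without IL-2 (right); coloured bars are equal-number lists and grey adds peaks found only in the deposited list. Bars at 100 and at 0 for the compared groups follow from the call rule. In the other libraries the coloured bars reach 32.2% to 61.4% on the left and 36.2% to 53.2% on the right.

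Of the 8 strongest regions without a deposited peak in cDKO without IL-2, 7 were in the equal-number lists of all 6 libraries outside that group. This pattern was uncommon among all 2267 such regions, of which 87 (3.84%) had it and 650 (28.7%) were in none of the 4 lists of the groups not compared. They include a region 2.92 kb outside Cd2, which encodes an adhesion receptor of T cells (chr3:101272578-101273402), with folds of 6.91 and 6.44 in control plus IL-2, 5.56 and 3.72 in control without IL-2, and 6.17 and 5.76 in cDKO plus IL-2. A region inside Xpo4, which encodes a nuclear transport receptor (chr14:57635614-57636182), had folds of 17.3 and 16.1, 12.5 and 7.61, and 15.5 and 17 in the same order. One inside Rap1b, a small GTPase gene (chr10:117818220-117818709), had 14.8 and 13.2, 14.4 and 7.79, and 7.26 and 11.7. The remaining ones lay inside Cpne6 and Vrk3, 47.5 kb from Cables1, and at chr10:17521948-17522366 with no protein-coding gene within 100 kb. In these 7 regions a peak was missing only from cDKO without IL-2.

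Of the 8 strongest regions higher in cDKO without IL-2 with no deposited peak in control plus IL-2, 4 lay on chromosome 6. The first was inside Eps8, which encodes a regulator of actin filaments (chr6:137541325-137541959), with folds of 15.7 and 15 in cDKO without IL-2 and 12.6 and 11.7 in cDKO plus IL-2. Among control libraries it appeared only in control without IL-2 replicate 2, at 4.35 and below the equal-number list. The region 17.2 kb from Bcat1, an amino acid aminotransferase gene, had 12.5 and 11.3 in cDKO without IL-2, 14.2 and 10.8 in cDKO plus IL-2 and no peak in any control library. Those inside Lrmp and E330021D16Rik shared this pattern, with equal-number peaks in each of the 4 cDKO libraries and in none of the 4 control libraries. The regions off chromosome 6 were less tied to genotype. The one inside Ctps2, which encodes a CTP synthase (chrX:162976230-162976489), had folds of 17 and 14.1 in cDKO without IL-2, 9.46 and 6.23 in control without IL-2, and 4.3 (below the equal-number list) and 6.83 in cDKO plus IL-2. The one inside Ube2j1, a ubiquitin-conjugating enzyme gene (chr4:33039235-33039566), had 13.7 and 14.9 in cDKO without IL-2, 9.7 and 6.52 in control without IL-2 and 8.42 and 8.95 in cDKO plus IL-2, so that it was missing only from control plus IL-2. Hdac4, a histone deacetylase gene, held a region at 10.8 and 10.8 (chr1:91987747-91988380) that was in no other equal-number list.

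**Figure D3:**
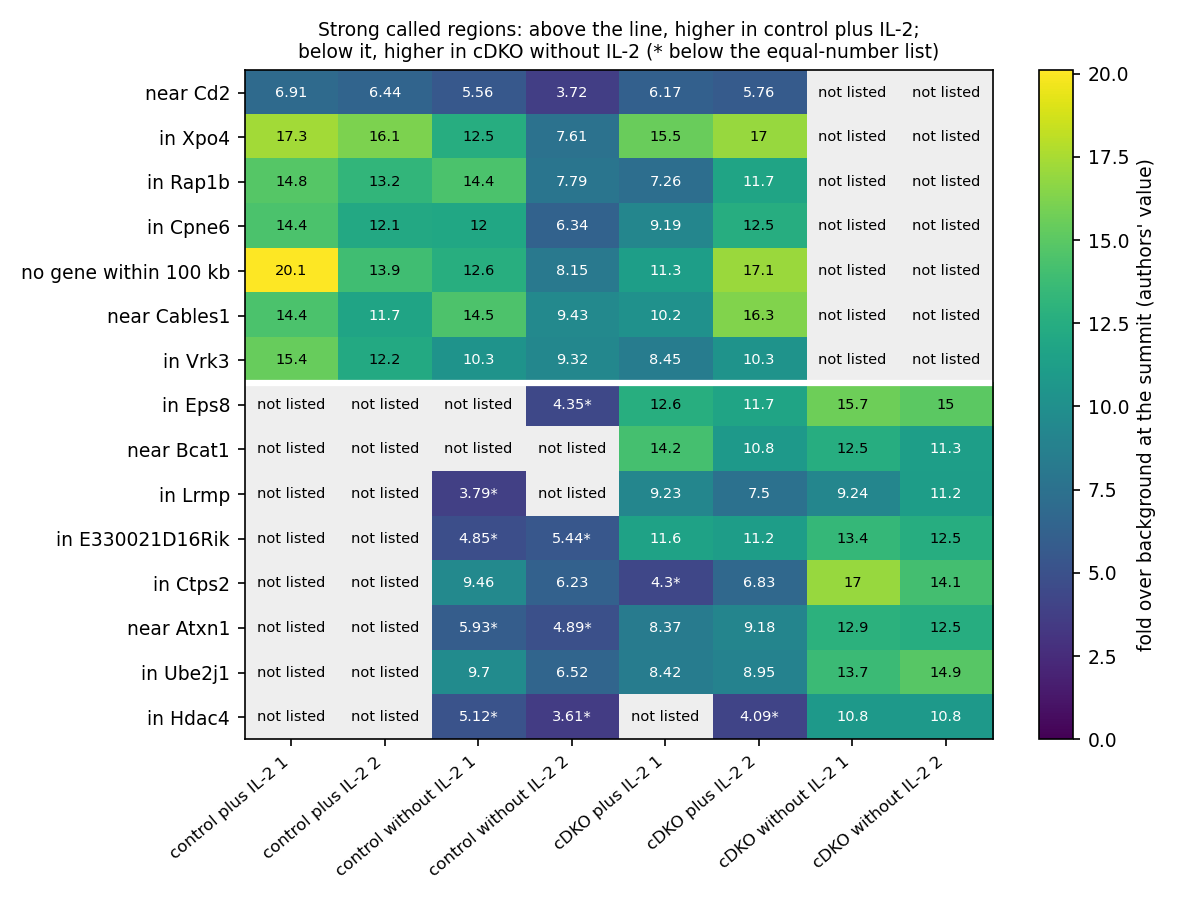
Authors' fold over background for 7 of the strongest regions higher in control plus IL-2 (above the line) and the 8 strongest higher in cDKO without IL-2 (below it), in each library (columns); grey cells hold no peak and an asterisk marks a peak below the equal-number list. The 7 upper rows were picked from the 8 strongest because every library outside cDKO without IL-2 had them in its equal-number list. Their filled cells follow from that choice, whereas the 8 lower rows were not picked by pattern. In the Eps8, Bcat1, Lrmp and E330021D16Rik rows only the 4 cDKO libraries have peaks in the equal-number lists.

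Called regions were unevenly spread along chromosomes. Chromosome 6, which also carries Tet3, held 161 of the 1757 regions without a deposited peak in control plus IL-2 (9.16%) and 152 of the 2267 without one in cDKO without IL-2 (6.7%). Over its own regions this was 4.23% and 3.99%, against 2.52% and 3.25% genome-wide. Its 5 Mb window that holds Tet3 (80 to 85 Mb) had 3 and 6 such regions of 142 examined. The most without a deposited peak in control plus IL-2 were 22 of 255 at 85 to 90 Mb. Next came 11 each at 110 to 115, 135 to 140, 140 to 145 and 145 to 150 Mb. Chromosome 13 had the highest share for control plus IL-2, at 4.52%. Without chromosome 6 the counts of called regions were 5538 and 5254, or 8.39% and 7.96%. The longest unbroken run of neighbouring regions called in 1 direction was on chromosome 6, where 13 successive regions over 127 kb between Hrh1, the histamine H1 receptor gene, and Atg7, an autophagy gene, were all higher in cDKO without IL-2 (chr6:114502244-114629569). Of these 13, 12 were listed by both cDKO plus IL-2 libraries and none by a control library in the equal-number lists. The region 69.9 kb from Hrh1 (chr6:114553099-114553348) had folds of 6.59 and 7.46 in cDKO without IL-2, 7.65 and 6.53 in cDKO plus IL-2 and no peak in the 4 control libraries. For control plus IL-2 the longest run was 7 regions over 118 kb on chromosome 13 (chr13:6109037-6226612), with no protein-coding gene within 100 kb. Of these 7, 2 were in both equal-number lists of control without IL-2, and 2 were in no equal-number list of cDKO plus IL-2. In the 444 windows of 5 Mb that held at least 40 examined regions, the share higher in control plus IL-2 ranged from 0% to 27.9% (12 of 43 regions, chromosome 1, 95 to 100 Mb), and the share higher in cDKO without IL-2 from 0% to 22.6% (12 of 53, chromosome 5, 150 to 155 Mb).

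**Figure D4:**
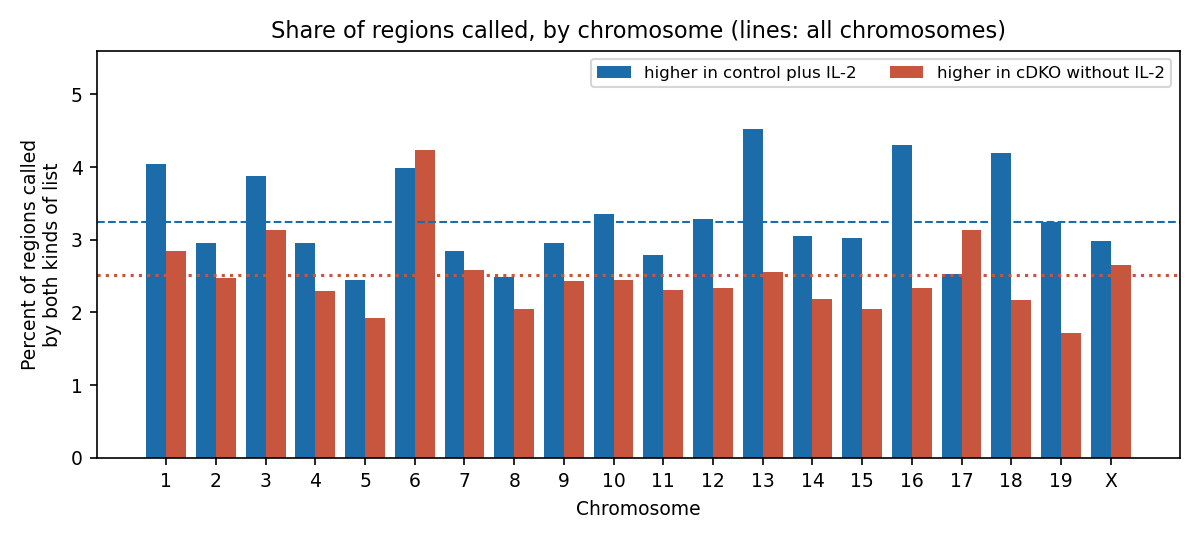
Percent of regions on each chromosome that were called and had no deposited peak in the other group; horizontal lines give the share over all chromosomes, 3.25% (dashed, control plus IL-2) and 2.52% (dotted, cDKO without IL-2). Chromosome 6 has the tallest bar for cDKO without IL-2, at 4.23%, and chromosome 13 the tallest for control plus IL-2, at 4.52%.

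Few called regions lay at gene ends. No more than 1 kb from an end of a protein-coding gene lay 4.39% of regions higher in control plus IL-2 and 4.89% of those higher in cDKO without IL-2, compared with 18.1% of all examined regions and 24.9% of those listed in all 4 libraries. Regions listed in exactly 2 of the 4 libraries, the number any called region has, had 5.84%. These 15273 regions include the 5875 and 5665 called ones, so their share is not independent of the called shares. Inside gene bodies lay 54.9% and 55.0%, against 58.7% of all examined regions. Median width was 386 bp for control plus IL-2 and 297 bp for cDKO without IL-2, against 495 bp. Exon and intron positions were not analysed here. Of 15993 genes with an examined region, 2289 had regions higher in control plus IL-2 only, 2283 in cDKO without IL-2 only and 1385 had both.

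At promoters, regions higher in control plus IL-2 overlapped 142 windows and those higher in cDKO without IL-2 overlapped 112. The GAS motif TTCNNNGAA, searched on both strands in the 250 bases before the start, was in 20 of the 142 (14.1%) and in 1 of the 112 (0.893%), against 7.02% of all 32851 windows and 5.68% of windows overlapping an examined region. In 17 of the 20 the match lay inside the called region. Among windows whose region had no deposited peak in the other group, 11 of 28 (39.3%) and 0 of 27 held it. RUNX had the opposite order, with 16 (11.3%) and 30 (26.8%) against 14% of all windows and 10.7% of windows overlapping an examined region. Its match lay inside the called region in only 17 of the 30, and in 13 of the 16. AP-1 was in 20 (14.1%) and 11 (9.82%) against 6.75% and 4.44%, with the match inside the called region in 18 and 7. Other searched motifs also differed between the directions. The SMAD motif GGCGCC was in 21 (14.8%) and 4 (3.57%), against 9.59% and 18%. The GC box was in 53 (37.3%) and 25 (22.3%), against 32.7% and 59.9%. ETS, FOX, TCF1/LEF1, CCAAT and TATA motifs were searched as well. Leaving out control plus IL-2 replicate 1 brought GAS to 6.99% and 3.3%, and leaving out its replicate 2 brought it to 12.4% and 4.69%. Without cDKO replicate 1 the shares were 12.1% and 6.9%, and without cDKO replicate 2 they were 11.9% and 2.14%. A motif match describes letters and does not show that a factor was bound.

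The shown promoters differed in which libraries listed them. Tnfaip6, which encodes a hyaluronan-binding protein induced in inflammation, had its GAS match 209 bases and its AP-1 match 142 bases before the start. Its region (chr2:52037804-52038190) had folds of 9.55 and 4.54 in control plus IL-2, 10.5 and 5.98 in control without IL-2, 4.92 (below the equal-number list) and 7.37 in cDKO plus IL-2, and no peak in cDKO without IL-2. Fgl2, which encodes a suppressive mediator made by regulatory T cells, had its GAS match 36 bases and its AP-1 match 16 bases before the start. Its region (chr5:21372508-21372794), which also lies inside the body of Ccdc146, had folds of 7.09 and 5.46 in control plus IL-2, 6.58 and 4.68 in control without IL-2, 3.82 and 4.98 in cDKO plus IL-2, and 3.57 and 3.26 in cDKO without IL-2. The last 2 values and the 3.82 were below the equal-number lists. Il9, a cytokine gene, had an AP-1 match 140 bases before the start, with folds of 9 and 7.22 in control plus IL-2 and a single weak peak of 3.83 in cDKO without IL-2. Its summits lay 3 and 28 bases from the start in control plus IL-2. Gpr15, which encodes a homing receptor for the colon, had an AP-1 match 199 bases and 2 RUNX matches 79 and 85 bases before the start, and folds of 7.58 and 9 in cDKO without IL-2. All other libraries with a peak there had it below the equal-number list, at 4.28 to 5.26. Among promoters named by rule but not shown, that of Rlbp1, a retinaldehyde-binding protein gene higher in control plus IL-2, held neither GAS nor AP-1. That of Pde6h, a cone phosphodiesterase subunit gene higher in cDKO without IL-2, held AP-1 without RUNX. The summits of both regions lay outside the searched stretch. Those of Rlbp1 were 399 and 379 bases before the start in control plus IL-2. Those of Pde6h were 436 and 475 bases before it in cDKO without IL-2. The motif results of Rlbp1 and Pde6h therefore do not describe the sequence at their summits.

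Il2ra held calls in both directions. Of its 17 examined regions, 3 were higher in control plus IL-2 and 2 in cDKO without IL-2. A pair of opposite calls lay 1002 bp apart, outside the gene. The region 14.4 kb outside (chr2:11628237-11628630) had folds of 9.9 and 11.5 in cDKO without IL-2 and no peak in control plus IL-2, with 5.01 and 4.58 in control without IL-2 and 5.22 and 5.34 in cDKO plus IL-2. The region 12.9 kb outside (chr2:11629633-11630115) had 9.76 and 8.6 in control plus IL-2, 9.57 and 6.88 in control without IL-2, and 10.1 and 8.63 in cDKO plus IL-2. In cDKO without IL-2 it had 3.97 and 3.63, below the equal-number lists. The first region was thus high in cDKO without IL-2, intermediate in the groups differing by 1 factor and absent from control plus IL-2, whereas the second was low only in cDKO without IL-2. At the boundary region of the gene (chr2:11642229-11643144) all 8 equal-number lists had a peak, from 4.68 to 6.46.

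Foxp3 had no call among 2 examined regions. Its intragenic region (chrX:7586226-7586968) had folds of 7.81 and 6.55 in cDKO without IL-2, 6.08 and 5.72 in cDKO plus IL-2, 6.26 and 5.2 in control without IL-2 and 4.59 in control plus IL-2 replicate 1. Only control plus IL-2 replicate 2, the shortest list, had no peak there. Il2 had 1 call in 8 regions, 45.4 kb outside the gene, higher in control plus IL-2. Tet1 had 1 call in 8, in the same direction, and Tet3 had 2 in each direction among 12. One Tet3 region (chr6:83428244-83428689) had 7.22 and 7.46 in cDKO without IL-2 and no peak in control plus IL-2. Another (chr6:83405404-83406065) had 8.53 and 7.72 in control plus IL-2 and 3.71 and 4.06, below the equal-number lists, in cDKO without IL-2. Regions of Tet1 and Tet3 do not check the deletion, because the deleted parts are not known here.

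By gene list, the IL-2 receptor and STAT5 list had more regions higher in control plus IL-2, 28 of 189 (14.8%), than in cDKO without IL-2, 14 (7.41%), against 8.42% and 8.12% over all regions. Its regions higher in control plus IL-2 included 5 of 32 at Bcl2, the survival gene, and 3 each at Gadd45g, Il2ra, Socs3 and Stat5b (of 13, 17, 7 and 12). A Bcl2 region (chr1:106700616-106701217) had folds of 9.63 and 6.84 in control plus IL-2, 8.65 and 7.03 in control without IL-2, no peak in cDKO plus IL-2 and 5.87 and 3.45, below the equal-number lists, in cDKO without IL-2. A region 7.45 kb from Il24, a cytokine gene (chr1:130894575-130895154), had 10.4 and 7.17 in control plus IL-2, 5.98 and 8.62 in cDKO plus IL-2, a peak in control without IL-2 only below the equal-number list and none in cDKO without IL-2. At this Bcl2 region the larger folds were those of the control libraries. At this Il24 region the peaks in equal-number lists were in the libraries given IL-2. Single regions do not describe the genes: of 32 Bcl2 regions, 2 were higher in cDKO without IL-2. Without control plus IL-2 replicate 2 the list had 34 and 19 of 207 (16.4% and 9.18%, against 12.6% and 10.3% of all regions). Without its replicate 1 they were 43 and 21 of 216 (19.9% and 9.72%, against 14.3% and 12.1%), and without cDKO replicate 2 they were 30 and 24 of 220 (13.6% and 10.9%, against 9.05% and 11%). With lists cut by fold the shares came near the background, at 13 and 10 of 145 (8.97% and 6.9%, against 7.82% and 8.23%). With the number of peaks halved the order turned, to 9 and 11 of 107. The main share of 14.8% was not the largest among the lists. Myeloid and dendritic cell genes had 19.1%, B cell genes 17.1% and T cell identity genes 15.1% higher in control plus IL-2.

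For genes of the TGF-β and SMAD pathway the counts were 31 of 244 (12.7%) and 18 (7.38%), and its order also turned with the number of peaks halved, to 12 and 19 of 132. The order of the counts turned without cDKO replicate 1 (34 and 37 of 301, or 11.3% and 12.3% against 8.79% and 11.5% of all regions) and with deposited lists (14 and 26 of 335, or 4.18% and 7.76% against 3.90% and 9.01%). Without control plus IL-2 replicate 1 the counts were 50 and 33 of 290 (17.2% and 11.4%, against 14.3% and 12.1% of all regions). Without its replicate 2 they were 50 and 25 of 290 (17.2% and 8.62%, against 12.6% and 10.3%). In the main setting receptor gene Tgfbr2 held 4 and 2 calls among 32 regions, and Ldlrad4, a gene for an inhibitor of the pathway, 5 and 4 among 34. A region inside Smad3, which encodes a receptor-activated SMAD (chr9:63711891-63712286), had folds of 8.8 and 5.54 in control plus IL-2, 8.79 and 5.2 in control without IL-2, 4.05 and 4.26 (below the equal-number lists) in cDKO plus IL-2 and none in cDKO without IL-2. A region inside Smurf1, a gene for a ubiquitin ligase that acts on SMADs and receptors (chr5:144898548-144899054), had 12.1 and 9.9 in control plus IL-2, 10.1 and 5.25 in control without IL-2, 9.17 and 12 in cDKO plus IL-2, and 4.83 and 4.6 below the equal-number lists in cDKO without IL-2. The Smad3 region followed genotype, and the Smurf1 region was low in cDKO without IL-2 alone. Itgae, which encodes the integrin chain CD103, had a region (chr11:73090350-73090719) at 6.76 and 6.21 in cDKO without IL-2, 5.45 and 4.4 in cDKO plus IL-2, and no peak in control plus IL-2.

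The Treg list had more regions higher in cDKO without IL-2, 33 of 240 (13.8%), than in control plus IL-2, 25 (10.4%). This order turned relative to the background in 3 of 12 alternative settings, and with deposited lists the counts were 19 in control plus IL-2 and 33 in cDKO without IL-2 of 312, against 3.90% and 9.01% over all regions. Nrp1, a receptor gene used as a marker of thymus-derived regulatory T cells, had 7 regions higher in cDKO without IL-2 and 1 higher in control plus IL-2, of 33. Ikzf2, which encodes Helios, had 4 and 2 of 19. Over all regions these shares were 8.12% and 8.42%. A region 65.7 kb from Ikzf2 (chr1:69752725-69753298) had folds of 10.6 and 9.28 in cDKO without IL-2, 9.65 and 8.49 in cDKO plus IL-2, 8.59 and 6.35 in control without IL-2 and none in control plus IL-2. Itgb8, an integrin gene used to activate TGF-β, had 1 and 4 of 10. A region inside Nt5e, which encodes the ectoenzyme CD73 (chr9:88337481-88338015), had 11.7 and 11.5 in control plus IL-2, 10.3 and 12 in cDKO plus IL-2, a single peak of 8.59 in control without IL-2 and none in cDKO without IL-2.

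The T cell identity, naive and memory, and early activation lists had larger shares higher in control plus IL-2. T cell identity had 39 of 258 (15.1%) and 23 (8.91%), naive and memory 51 of 417 (12.2%) and 37 (8.87%), and early activation 31 of 248 (12.5%) and 17 (6.85%). In these 3 lists the order relative to the background was the same in all 12 alternative settings. The order of the counts was not: with deposited lists, where 3.90% and 9.01% of all regions were called, T cell identity had 26 and 34 of 339 and naive and memory 41 and 54 of 589. The settings are not independent of the main calls, so their number does not measure support. Leaving out 1 library keeps 100% of the main calls by construction. Counting regions by gene body with 10 kb on each side reuses the main calls. The number of peaks halved changed the calls most, keeping 13.3% and 4.85% of them. Without control plus IL-2 replicate 1, 59 of 301 (19.6%), 101 of 503 (20.1%) and 52 of 289 (18%) were higher in that group, against 14.3% of all regions. Without its replicate 2 these were 51 of 293 (17.4%), 83 of 485 (17.1%) and 48 of 285 (16.8%), against 12.6%. Relative to all regions, the shares without replicate 1 were 1.37, 1.4 and 1.26 times, against 1.8, 1.45 and 1.48 times with all 4 libraries. Bach2 and Foxp1, genes for transcription factors that restrain effector differentiation, had 9 regions each higher in control plus IL-2, of 63 and 68, and 5 and 6 in the other direction. Lef1, an HMG factor gene of naive T cells, had 7 and 1 of 26. Ikzf1 (5 and 0 of 21), Ets1 (5 and 3 of 39), Myb (3 and 1 of 14) and Zeb1 (3 and 2 of 18) also had more calls in that direction. Factor genes with more calls in the other direction were Tcf7 (1 and 4 of 15), Satb1 (1 and 3 of 19), Foxo1 (1 and 3 of 22) and Id3 (0 and 1 of 10). Klf2 had 1 each of 7. Over all regions 8.42% and 8.12% were called, and several of these genes differ by few calls. A region 0.725 kb outside Il7r, which encodes the IL-7 receptor (chr15:9505214-9505654), had folds of 13.2 and 9.7 in control plus IL-2, 10.2 and 5.73 in control without IL-2, 6.53 and 7.49 in cDKO plus IL-2 and none in cDKO without IL-2. In the opposite direction, a region 7.46 kb from Ccr7, the lymph node homing receptor gene (chr11:99136348-99137135), had 7.01 and 6.78 in cDKO without IL-2, 5.77 and 6.5 in cDKO plus IL-2, and peaks of 3.16 to 3.39 below the equal-number lists in 3 control libraries. The same split was seen in a region inside Tet2, the gene of the remaining TET enzyme (chr3:133518707-133519333). It had 11 and 11.5 in cDKO without IL-2, 10.7 and 11.4 in cDKO plus IL-2, and 4.49 to 4.97 below the equal-number lists in 3 control libraries. Of 17 examined Tet2 regions it was the 1 higher in cDKO without IL-2, and 2 were higher in control plus IL-2. Ptprc, the gene of CD45, held a region (chr1:138076518-138076901) at 10.1 and 8.35 in control plus IL-2 and none in cDKO without IL-2.

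The Th1 and cytotoxic list had 6 of 152 regions (3.95%) higher in control plus IL-2, below the 8.42% of all regions, and 15 (9.87%) in cDKO without IL-2, near the 8.12%. With lists cut by fold the counts were 8 and 9 of 140 (5.71% and 6.43%, both below the background), and with the number of peaks halved the order turned (9 and 5 of 84). Without control plus IL-2 replicate 1 they were 16 and 22 of 177 (9.04% and 12.4%, against 14.3% and 12.1% of all regions). Without its replicate 2 they were 12 and 23 of 173 (6.94% and 13.3%, against 12.6% and 10.3%). Without cDKO replicate 1 they were 13 and 24 of 177 (7.34% and 13.6%, against 8.79% and 11.5%). Without cDKO replicate 2 they were 11 and 21 of 174 (6.32% and 12.1%, against 9.05% and 11%). Runx3 and Eomes, transcription factor genes of cytotoxic cells, had 3 regions each higher in cDKO without IL-2, of 22 and 10, and 0 and 1 higher in control plus IL-2. A region 31.6 kb from Ifng, the interferon-gamma gene (chr10:118477372-118477605), had folds of 6.76 and 8.43 in cDKO without IL-2, 4.78 and 3.54 in cDKO plus IL-2, the latter below the equal-number list, and no peak in control plus IL-2. Th17 had 19 of 198 and 15, Th2 10 of 95 and 6, and Tfh 10 of 132 and 9. The germline list, genes kept silent by DNA methylation, had 1 of 23 and 4, with 0 of its 19 promoter windows listed in any library. Without chromosome 6 it had 0 and 1 of 15. Myeloid and dendritic cell genes had 13 of 68 (19.1%) and 6 (8.82%), and B cell genes 6 of 35 (17.1%) and 4 (11.4%). For both lists the order relative to the background held in 9 of 12 alternative settings. CD8 T and NK cell genes had 4 of 55 and 7, and erythroid genes 2 of 22 and 4. A region 11.5 kb from Cebpa, a myeloid transcription factor gene (chr7:35107527-35107989), had 18.8 and 11.3 in control plus IL-2, 13.3 and 7.81 in control without IL-2, 8.37 and 13.9 in cDKO plus IL-2, and 4.56 and 5.26 below the equal-number lists in cDKO without IL-2. The part of other cell types in these counts was not tested.

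**Figure D5:**
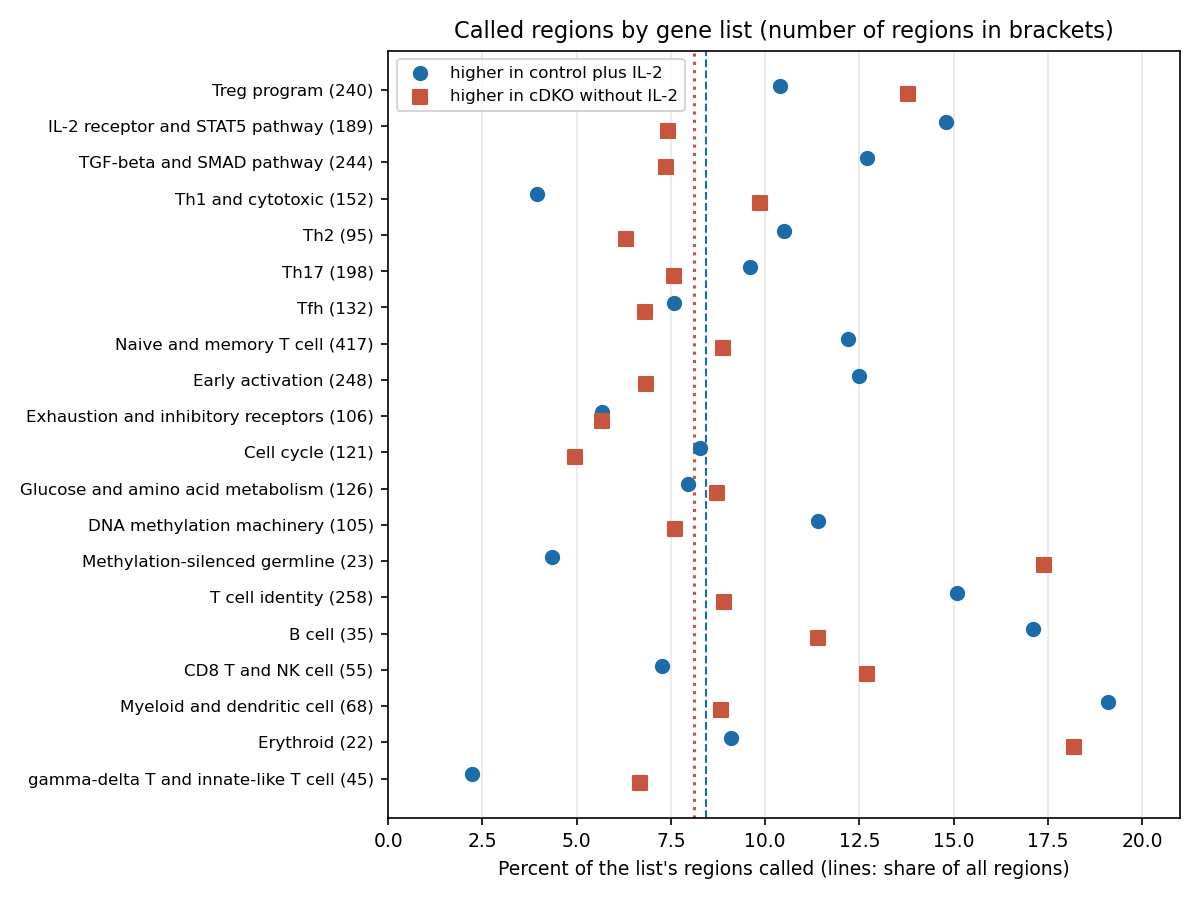
Percent of the examined regions of each gene list that were higher in control plus IL-2 (circles) or in cDKO without IL-2 (squares); vertical lines give the share over all regions, 8.42% (dashed) and 8.12% (dotted), and the number of regions stands in brackets. The IL-2 receptor and STAT5 list lies at 14.8% and 7.41%, the Treg list at 10.4% and 13.8%, and the myeloid and dendritic cell list at 19.1% and 8.82%.

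Regions in all 4 lists cannot be called, so their ranks were compared as a description. The mean rank, as a percent of the list with low values for strong peaks, had a median of 35.8% in control plus IL-2 and 34.6% in cDKO without IL-2 over 44081 regions, and the median difference per region (cDKO without IL-2 minus control plus IL-2) was -0.80 points. For the IL-2 receptor and STAT5 list it was 1.25 points over 120 regions, for cell cycle genes 2.55 over 83, for Th1 and cytotoxic -2.78 over 101, and for T cell identity -2.67 over 153. Over the 20 lists it ranged from -4.90 to 2.72. The T cell identity list had more calls higher in control plus IL-2, while its median difference in shared regions was toward cDKO without IL-2. Its medians lay close, at 39.4% in control plus IL-2 and 38.7% in cDKO without IL-2. For Th1 and cytotoxic they were 36.7% and 38.3%, opposite in order to its median difference. These differences were not tested.

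By gene, the largest numbers of regions higher in control plus IL-2 were 11 of 50 at Pde4d, which encodes a cyclic AMP phosphodiesterase, 10 of 47 at Maml2, a Notch co-activator gene, and 9 each at Inpp4b, a phosphoinositide phosphatase gene (of 49), Bach2 and Foxp1. In the opposite direction Pde4d and Maml2 had 4 each and Inpp4b 3. For cDKO without IL-2 the largest numbers were 9 of 30 at Atg7, 9 of 40 at Sox5, 8 of 30 at Atp10a, 8 of 46 at Wwox and 7 of 9 at Hrh1, with 7 also at Nrp1, Btbd9 and Lclat1. In the opposite direction Sox5 had 6, Atg7 3, Atp10a and Wwox 1 each and Hrh1 0. Atg7, Sox5 and Hrh1 lie on chromosome 6. Regions of Inpp4b reached folds of 10.7 and 7.64 in control plus IL-2 (chr8:81790208-81790621), with 7.03 and 4.94 in control without IL-2, 6.85 and 7.59 in cDKO plus IL-2 and none in cDKO without IL-2. At Atp10a, a lipid flippase gene, a region (chr7:58770305-58770614) had 10.1 and 9 in cDKO without IL-2, 10.8 and 12.2 in cDKO plus IL-2, 5.27 and 4.88 below the equal-number lists in control without IL-2 and none in control plus IL-2. Genes with more examined regions have more chances of a call, and these counts were not adjusted for that.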

How the data were processed

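ATAC-seq was measured in 8 libraries, 2 per group. The authors deposited 1 peak list per library. Per the submitters' processing notes the build was GRCm38 (mm10) and the tools were MACS2 2.2.7.1, HOMER 4.11.1, Bowtie2 2.4.1, DiffBind 2.10.0, Trimmomatic 0.39, ChIPseeker 1.18.0, SAMtools 1.3.1 and Picard, with no roles stated. Read shifting, duplicate handling and calling thresholds are steps not given in the sources used here. Read depth is unknown, so no interval or floor is given. The deposited values are, per peak, a fold over background (a ratio) and −log10 p- and q-values. The deposited score column was not used.

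Overlapping peaks from the 8 lists (at least 1 bp shared) were merged (175276 regions, median 250 bp), and lists were cut to the 65811 peaks of highest −log10 p. A cut by equal number assumes equally many open regions per library. Genes are RefSeq protein-coding bodies (GRCm38.p6) holding the midpoint, otherwise the nearest within 100 kb. Of 333 genes in 20 lists, 329 matched. Motifs were searched in 32851 RefSeq promoter windows. No genome was given, so peak sequences were not analysed here.

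The groups, gene lists and motifs were chosen with earlier results of these data known. Named regions are the 8 per direction with the smallest worst rank and no deposited peak in the other group, up to 4 genes per list and direction, the 5 genes with most calls per direction, the top 4 promoters per direction, and Tet1, Tet3, Foxp3, Il2ra and Il2. From these the text takes examples, and some items are not reported here. Promoters of Fgl2, Tnfaip6, Il9 and Gpr15, the runs of neighbouring regions and the Il2ra pair were singled out after their values were seen. The design text calls the replicates biological, but the source animals are not named, so their spread may be partly technical. Scripts used Python 3.11.15, pandas 2.3.3 and numpy 2.4.6, and the call rule was tested on simulated lists.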

Additional observations from a re-analysis of the deposited data

How the results depend on the processing

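Counts of regions higher in control plus IL-2 and in cDKO without IL-2 (5875 and 5665) became 3879 and 8948 with deposited lists, 3771 and 8826 with deposited lists at a q of 0.001, and 3206 and 3041 with the number of peaks halved. They stayed within 1.5 times when lists were ranked by fold (5460 and 5744), when a peak had to cover 50% of a region (6368 and 6799), with the union of the 4 compared libraries (5934 and 5711) and without chromosome 6. Leaving out 1 library, which loosens the rule, gave 7412 to 11955 and 8414 to 10092. Halved lists shared 781 and 275 calls with the main lists, 24.4% and 9.04% of their own. The mean Jaccard index of 0.645 became 0.584 with deposited lists, 0.590 at a q of 0.001, 0.618 by fold and 0.559 with 50% cover. The replicates of control plus IL-2 (0.713) shared 0.557 with deposited lists and 0.567 at a q of 0.001, below the values between groups. For regions higher in cDKO without IL-2, the mean percent listed in control without IL-2 minus that in cDKO plus IL-2 (-13.9 points) became -3.22 with deposited lists, -2.66 at a q of 0.001, -10.7 by fold and -8.82 with 50% cover. Leaving out 1 library gave -8.87 to -13.7, and 8.9 to 16.7 for regions higher in control plus IL-2 (17.1). Neither difference changed sign in these settings, but with deposited lists the SD between replicates (pooled over both groups) exceeded the values (16.8 ± 26.1 and -3.22 ± 21, and at a q of 0.001 18.4 ± 26.6 and -2.66 ± 21.2), so the genotypes overlapped there. Of 480 list counts under alternatives, 313 stayed within 1.5 times and 167 did not. Where no construction of the rule shows it, the cause was not tested. Presence without each library and the motif shares without each library were chosen after seeing the data. No paired analysis was possible because the results come from no test, and no source used here states that replicate numbers pair the samples. Depth is unknown, and the shortest list (control plus IL-2 replicate 2) limits what can be called absent there.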
